A study of Mus musculus with 16 samples.

Results

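Molecular chaperones of the heat shock protein and DnaJ families were measured in the hippocampus of 16 mice. The genes were taken by name: every protein coding gene of the deposited transcript table whose symbol starts with Hsp or Dnaj. This gave 63 genes of 14785 protein coding genes, 25 with an Hsp and 38 with a Dnaj symbol, measured through 258 of the table's 80137 transcripts. Hspg2, Hspbp1 and Hspbap1 carry the name without belonging to these families. Hspg2 encodes perlecan, a protein of the extracellular matrix. Hspbp1 and Hspbap1 bind a heat shock protein, and Hspbp1 is an exchange factor of Hsp70. Hspb11, an intraflagellar transport protein also called Ift25, is likewise a member by name and not a classical small heat shock protein. Nearly all other members encode chaperones or proteins with a related domain.

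All mice were male C57BL/6 wild type animals 3 months old, with 4 mice in each group and both hippocampi of a mouse pooled into 1 library. Homecage (HC) mice were neither handled nor tested. Control (Ctrl) mice were placed in the shuttle box without inescapable shocks and later given 30 escape trials at 0.4 mA. Both remaining groups went through 180 inescapable shocks of 0.4 mA and, 24 h later, the same 30 trials. Their mice were sorted into learned helpless (LH) animals and others that were not helpless (NLH) by escape failures and latency in that test, so these groups were formed by behavior and not by treatment. Ctrl, NLH and LH tissue was taken 3 h after the test. Every group other than HC had therefore received escapable foot shocks, and the model holds no tested group without shocks. Levels are FPKM, the fragments of a transcript scaled to its length and to the mapped fragments of the library, and the level of a gene is the sum over its rows typed as protein coding, a type given by gene, so that noncoding transcripts of coding genes are included.

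Chaperones hold unfolded proteins and help them to fold. Hsp70 proteins bind and release short stretches of a client in a cycle driven by ATP, DnaJ proteins deliver the client and trigger ATP hydrolysis through their J domain, and Hsp110 proteins exchange the nucleotide. Hsp90 proteins act later, on kinases and on receptors such as the glucocorticoid receptor. In the cytosol the inducible members are switched on by the transcription factor HSF1 through heat shock elements, and in the endoplasmic reticulum (ER) by the unfolded protein response through the ER stress response element. In neurons Hspa8 with Dnajc6 removes clathrin from vesicles, and Hspa8 with Dnajc5 works on synaptic vesicles.

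Those 2 elements were looked for in the RefSeq promoter windows of the GRCm38.p6 build, 250 bases before to 50 bases after each start, which held 52 of the 63 genes. No window was at hand for Dnajc11, Dnajc12, Dnajc18, Dnajc2, Dnajc5, Hsp90aa1, Hsp90ab1, Hspa13, Hspa8, Hspa9 and Hspb2. The ER stress response element, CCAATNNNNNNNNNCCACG or its reverse complement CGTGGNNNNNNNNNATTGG, stood in 0.119% of 32851 promoter windows and in those of Hspa5, Hsp90b1 and Dnajc3, which are 3 of the 52 genes (5.77%, against 0.137% of all 27025 symbols). A heat shock element of 3 units, GAANNTTCNNGAA or TTCNNGAANNTTC, stood in 0.603% of the windows and in those of Dnajb6, Hspd1, Hspe1 and Hsph1 (7.69% of the 52, against 0.662% of all symbols). The shorter form of 2 units, GAANNTTC or TTCNNGAA, which every longer match also holds, was found in 12 of the 52 (23.1%, against 17.0%). The windows below are printed because the ER genes among them and Hsph1 stood among the members that differed most between groups, and Hspe1 shares its matches with Hspd1. The 250 bases before the start are given 5′ to 3′ with the matches in capitals, and for Hsph1, whose match lies after the RefSeq start, 30 bases around it. A match is a run of letters and was not tested as a binding site.
Hspa5 (chr2:34771840-34772089, plus strand): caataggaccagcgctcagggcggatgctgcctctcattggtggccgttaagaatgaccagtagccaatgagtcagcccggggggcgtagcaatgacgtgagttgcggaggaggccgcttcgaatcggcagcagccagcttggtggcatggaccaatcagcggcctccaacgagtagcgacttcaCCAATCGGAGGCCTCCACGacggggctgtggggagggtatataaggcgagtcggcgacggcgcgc
Hsp90b1 (chr10:86705445-86705694, minus strand): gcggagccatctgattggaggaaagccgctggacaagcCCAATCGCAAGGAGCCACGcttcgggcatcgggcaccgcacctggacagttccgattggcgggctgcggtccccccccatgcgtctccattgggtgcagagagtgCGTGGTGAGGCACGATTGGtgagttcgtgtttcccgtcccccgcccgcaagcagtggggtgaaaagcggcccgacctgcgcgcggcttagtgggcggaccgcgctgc
Dnajc3 (chr14:118937682-118937931, plus strand): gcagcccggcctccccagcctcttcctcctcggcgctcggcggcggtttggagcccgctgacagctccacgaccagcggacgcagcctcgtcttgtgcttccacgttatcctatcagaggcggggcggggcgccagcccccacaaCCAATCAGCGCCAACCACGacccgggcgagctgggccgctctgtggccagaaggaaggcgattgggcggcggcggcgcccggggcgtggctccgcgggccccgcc
Hspe1 (chr1:55087898-55088147, plus strand): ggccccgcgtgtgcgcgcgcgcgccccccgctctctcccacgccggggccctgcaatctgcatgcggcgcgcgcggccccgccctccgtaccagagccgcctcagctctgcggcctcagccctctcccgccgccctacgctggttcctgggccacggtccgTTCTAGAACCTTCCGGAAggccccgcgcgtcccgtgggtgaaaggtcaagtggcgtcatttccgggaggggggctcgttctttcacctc
Hsph1 (chr5:149636279-149636308, minus strand): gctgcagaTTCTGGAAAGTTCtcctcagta
Hsp90b1 held both orientations of the ER element, at window positions 39 to 57 and 144 to 162, Dnajc3 held it at 146 to 164 and Hspa5 at 186 to 204. In GENCODE vM21 the matches of Hsp90b1 and Dnajc3 lay outside the gene, and that of Hspa5 lay 55 bases inside an annotated exon of a longer transcript. The Hspe1 window runs head to head with that of Hspd1, so the overlapping matches between 55088059 and 55088076 on chromosome 1 belong to both genes. The Hsph1 match lay in an exon, 76 bases after the 5′ end annotated there.

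Some libraries stood apart. Of the 80137 transcripts, 4872 to 7352 were listed at 0 in 14 mice, 10846 in LH replicate 3 and 15504 in LH replicate 4, and median-ratio size factors ran from 0.816 (LH replicate 4) to 1.21 (LH replicate 2). Transcripts annotated as retained introns took 8.31% to 8.87% of the protein coding FPKM in HC and Ctrl mice, 7.42% to 8.48% in NLH mice, and 6.71%, 6.93%, 7.87% and 9.64% in LH replicates 1 to 4. All 5 hippocampal marker genes were measured, with summed levels of 73.9 to 118 FPKM. One of them, Wfs1, was 1.66, 1.19, 4.71 and 2.32 FPKM in NLH and 1.48, 1.55, 0.194 and 0.00225 in LH, lower at an unadjusted limma p in LH vs. NLH (difference -2.10 on the log2 scale) and in LH vs. HC, while Neurod6 was higher at an unadjusted p in LH mice than in both Ctrl and HC mice. The 5 striatal genes summed to 3.62 to 3.96 FPKM in HC mice, 3.61 to 3.86 in Ctrl mice, 3.56 to 5.72 in NLH mice and 5.84, 5.94, 5.79 and 3.34 in LH replicates 1 to 4, so 3 LH mice lay above every other mouse. The 5 genes moved in both directions, with positive differences for 2 of 5 in LH vs. Ctrl (median -0.19), 3 of 5 in LH vs. HC (0.084) and 2 of 5 in LH vs. NLH (-0.074). The endothelial and pericyte markers, 5 of 6 measured, summed to 23.7 to 25.2 FPKM in HC mice, 19.9 to 23.6 in Ctrl mice, 23.7 to 29.9 in NLH mice and 23.7 to 34.3 in LH mice. All Ctrl mice lay below every other mouse there, and 2 of these markers were higher at an unadjusted p in LH vs. Ctrl, 1 in LH vs. HC and 1 in LH vs. NLH, with 1 lower in LH vs. NLH and 1 lower in Ctrl vs. HC. The 5 choroid plexus markers summed to 2.57 to 91.6 FPKM, with wide ranges inside each group. The part of these markers in the results was not tested. In whole tissue, fewer cells of a type and less RNA per cell cannot be told apart.

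**Figure D1:**
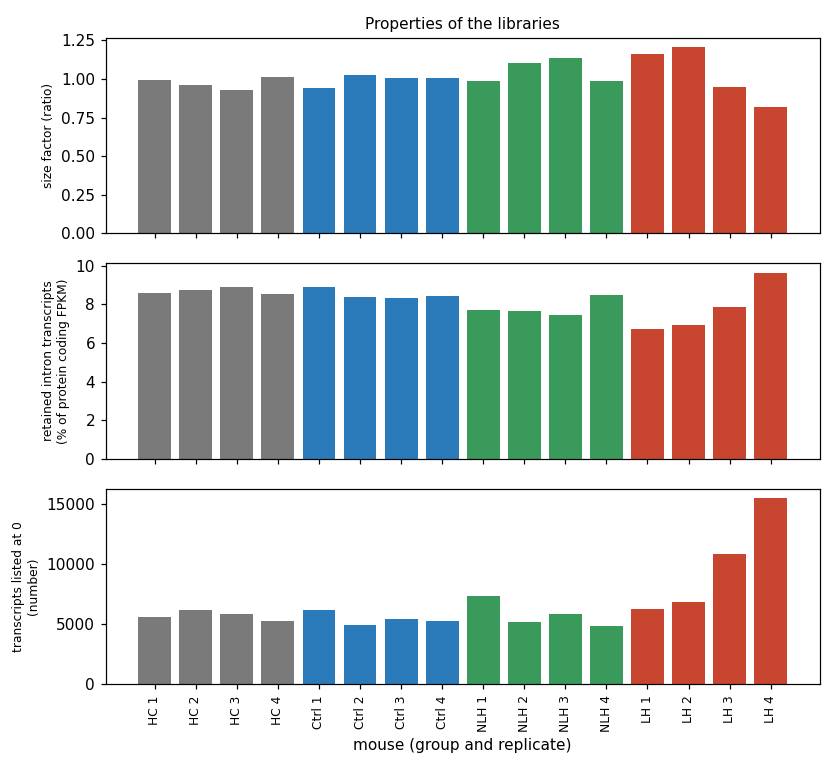
Size factor, share of protein coding FPKM in transcripts annotated as retained introns (percent) and number of the 80137 transcripts listed at 0, as 1 bar per mouse colored by group. LH replicates 1 and 2 have the largest size factors and the smallest shares of retained introns (6.71% and 6.93%), and LH replicate 4 has the smallest size factor (0.816), the largest share (9.64%) and the most transcripts at 0 (15504).

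Hspa8, the constitutive cytosolic Hsp70, was the highest with a mean of 389 FPKM over the 16 mice, followed by the cytosolic Hsp90 genes Hsp90aa1 (165 FPKM) and Hsp90ab1 (162 FPKM). These 3 were the members above 100 FPKM, 22 members had a mean of at least 10 FPKM, 55 of at least 1 FPKM and 62 of at least 0.1 FPKM. Next in order were Hsp90b1 (47.4 FPKM), the Hsp90 of the ER, the vesicle uncoating partner Dnajc6 (43.9 FPKM), Hspa5 (36.4 FPKM), the Hsp70 of the ER, Dnajc5 (29.5 FPKM), the cysteine string protein of synaptic vesicles, Hspa9 (26.4 FPKM), the Hsp70 of mitochondria, Hspa12a (21.2 FPKM) and the Hsp110 gene Hspa4 (20.7 FPKM). The groups' ranges of Hsp90aa1 and Hsp90ab1 overlapped, as did those of Hsp90b1 and Dnajc6 and of Hspa12a and Hspa4, so the order within those pairs is not set. The place of Hspa5 differed between groups, with 21.3 to 23.3 FPKM in HC mice below both Dnajc5 (27.4 to 29.4) and Hspa9 (24.2 to 27.5), and in LH mice a mean of 46.8 FPKM beside 44.6 for Dnajc6, whose ranges there overlapped. Hspb1, the inducible small heat shock protein, was low at 1.75 FPKM. Hspb2 lay lowest, at 0.0624 FPKM, and was listed at 0 in 6 of the 16 mice. Hspa1a and Hspa1b, the stress-inducible Hsp70 genes, are among 12 genes of such names in GENCODE vM21 that were not analysed here.

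The members' share of the protein coding FPKM was summed in each mouse. The share was 1.15%, 1.16%, 1.16% and 1.17% in the HC mice, 1.22%, 1.24%, 1.23% and 1.27% in the Ctrl mice, 1.34%, 1.29%, 1.31% and 1.28% in the NLH mice and 1.38%, 1.45%, 1.26% and 1.37% in the LH mice. HC, Ctrl and NLH mice did not overlap with each other, and LH replicate 3 fell among the Ctrl mice. The gap between HC and Ctrl was not seen without the noncoding transcripts. Over transcripts annotated as coding alone, a sum added after seeing the data, the members took 1.15% to 1.18% in HC mice and 1.17% to 1.22% in Ctrl mice, which overlapped, while NLH mice (1.27% to 1.39%) and LH mice (1.28% to 1.44%) all lay above them. A share within a mouse does not move with a common scale factor. Hspa8 alone made up 26.8% to 34.3% of the members' FPKM. Without Hspa8, Hsp90aa1 and Hsp90ab1 the share was 0.529% to 0.544% in HC mice, 0.535% to 0.561% in Ctrl mice, 0.572% to 0.622% in NLH mice and 0.561% to 0.638% in LH mice. The HC and Ctrl mice overlapped on this measure, while all NLH mice lay above all Ctrl mice. No test was made of these sums, since the genes were chosen with earlier results in view.

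**Figure D2:**
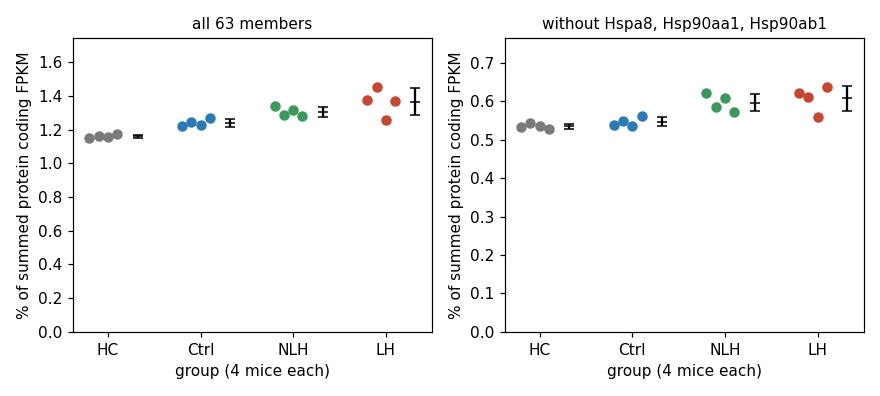
Share of summed protein coding FPKM (percent) taken by all 63 members (left) and by the members without Hspa8, Hsp90aa1 and Hsp90ab1 (right). Points are mice, bars the group mean with SD (4 mice each); on the left, where noncoding transcripts of the members are included, the HC mice (1.15% to 1.17%), Ctrl mice (1.22% to 1.27%) and NLH mice (1.28% to 1.34%) do not overlap, and on the right HC and Ctrl do.

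Differences between groups were fitted with limma on log2(FPKM + 0.1) over all 14785 protein coding genes, so every difference below is on that scale. Ctrl vs. HC addresses the escape test and its handling. NLH vs. Ctrl and LH vs. Ctrl address the inescapable shocks in mice that later did or did not escape. LH vs. NLH addresses the behavioral outcome after equal inescapable shocks. In the test an escape ended the shock, while a failure gave it in full. LH mice, with more failures and longer latency, thus received more foot shock in the test, 3 h before the tissue was taken. That exposure cannot be told apart from the outcome in LH vs. NLH, or from the inescapable shocks in LH vs. Ctrl. Ctrl vs. HC, NLH vs. Ctrl and LH vs. Ctrl share the Ctrl mice, and NLH vs. HC and LH vs. HC share the HC mice with Ctrl vs. HC. Members called by limma at an adjusted p under 0.05 numbered 0 in Ctrl vs. HC (0% of all genes called), 0 in NLH vs. Ctrl (0%), 0 in LH vs. Ctrl (0.0541%), 0 in LH vs. NLH (0.00676%), 0 in NLH vs. HC (0.0203%) and 3 in LH vs. HC (0.304%). The 3 were Hspa4l, Dnajc3 and Hsph1, all higher in LH. In a fit of only the 8 mice compared, all 3 lost their call (0 genes called of 14785). In the 16 fits that left out 1 mouse, Hspa4l lost its call in 4, namely without each of the HC mice (limma adjusted p 0.0597 to 0.0796), Dnajc3 in 9 (up to 0.13, without HC replicate 2) and Hsph1 in 12 (up to 0.156, without HC replicate 3), while all 3 stayed higher in LH.

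Below that threshold, members were also counted by direction. At an unadjusted limma p under 0.05, 4 members were higher and 1 lower in Ctrl vs. HC, where 1.66% of all genes were higher and 0.974% lower. In NLH vs. Ctrl 14 were higher and 0 lower (4.99% and 0.967% of all genes), and in LH vs. Ctrl 18 were higher and 1 lower (8.18% and 3.58%). In LH vs. NLH 2 were higher and 1 lower (2.98% and 4.05%), the former about the share of all genes, and 30 of the 63 differences were positive. Against HC, 16 members were higher and 0 lower in NLH (6.72% and 0.879%), and 21 were higher and 1 lower in LH (10.2% and 3.42%). The median difference of the members was 0.060 in Ctrl vs. HC (all genes 0.026), 0.14 in NLH vs. Ctrl (0.068), 0.13 in LH vs. Ctrl (0.0098), -0.0011 in LH vs. NLH (-0.054), 0.21 in NLH vs. HC (0.095) and 0.21 in LH vs. HC (0.036). With median-ratio size factors, which set the median of all genes near 0, the members' medians were 0.030, 0.058, 0.099, 0.042, 0.11 and 0.14 in the same order. The members therefore lay above the median gene in all 6 comparisons under both scalings, by little in Ctrl vs. HC. The genes behind that median were not matched for level. A mean of at least 1 FPKM was reached by 55 of the 63 members and by 10108 of all 14785 genes. The part of level was not tested, and no test was made of these medians. Single LH mice moved them: the LH vs. Ctrl median was 0.057 without LH replicate 1 and 0.23 without LH replicate 4, and the LH vs. NLH median turned from -0.11 without LH replicate 2 to 0.062 without LH replicate 4. In Ctrl vs. HC it was 0.028 without Ctrl replicate 2, in NLH vs. Ctrl 0.21 without NLH replicate 4 and in LH vs. HC 0.13 without LH replicate 2.

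The groups were also compared mouse by mouse. All 4 mice of the first group lay above all 4 of the second for 6 members in Ctrl vs. HC (3.87% of all genes), 12 in NLH vs. Ctrl (5.48%), 13 in LH vs. Ctrl (4.84%), 1 in LH vs. NLH (0.92%), 16 in NLH vs. HC (7.2%) and 11 in LH vs. HC (5.38%). The 6 in Ctrl vs. HC were Dnaja4, Dnajb5, Dnajc3, Hspa5, Hspa8 and Hspb1, and the 1 in LH vs. NLH was Hspa4l. Complete separation the other way was seen for Dnajc13 in Ctrl vs. HC (1.97% of all genes) and for Dnajc4 in LH vs. NLH (1.06%) and in LH vs. HC (1.28%), and for 0 members in NLH vs. Ctrl (1.25%), LH vs. Ctrl (1.14%) and NLH vs. HC (1.01%). Dnaja4 and Dnajc13 were named after their values were seen. With size factors the numbers were 6 (3.58% of all genes), 14 (3.88%), 15 (4.89%), 1 (1.1%), 14 (3.92%) and 13 (4.63%) in the same order, and the 1 in LH vs. NLH was then Dnajc3, since Hspa4l overlapped. The other way, 8 members were separated with size factors in Ctrl vs. HC (3.26%), more than the 6 above, 0 in NLH vs. Ctrl (3.99%), 1 in LH vs. Ctrl (3.92%), 2 in LH vs. NLH (1.83%), 1 in NLH vs. HC (3.96%) and 2 in LH vs. HC (3.73%). The 8 in Ctrl vs. HC were Dnajb14, Dnajc12, Dnajc13, Dnajc27, Dnajc4, Dnajc8, Hspa9 and Hspd1, of which Dnajb14, Dnajc12 and Dnajc27 were named after their values were seen.

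**Figure D3:**
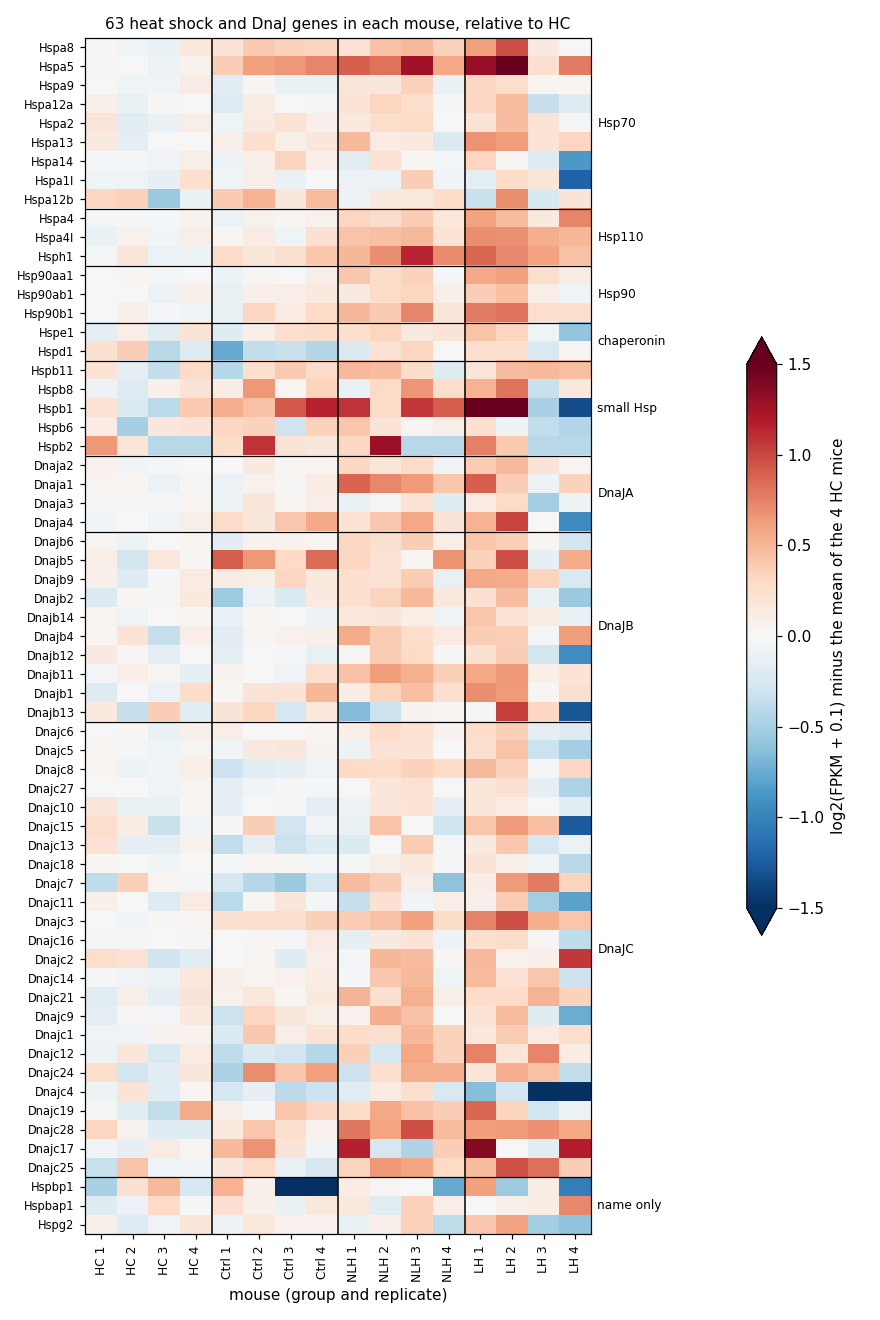
Difference of each member from the mean of the 4 HC mice on the log2(FPKM + 0.1) scale (color, saturated beyond 1.5 in either direction), with mice in columns and the 63 members in rows by class and mean level. Hspa5 is above HC in all 12 tested mice, the 3 Hsp110 genes are above HC in all 8 NLH and LH mice, and LH replicates 1 and 2 are redder than LH replicates 3 and 4 at these levels, which are not scaled by size factors.

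**Figure D4:**
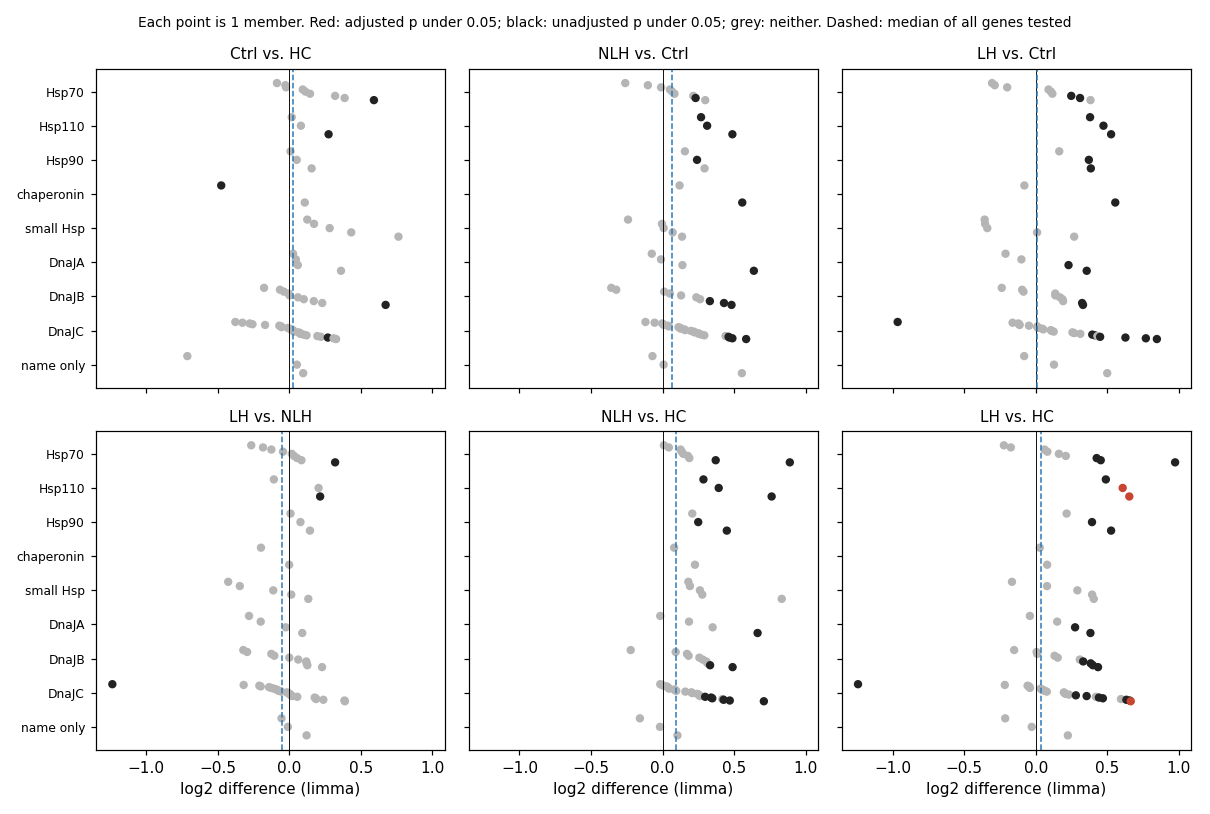
Log2 difference of each member (1 point per gene, in rows by class) in the 6 comparisons, with members past the adjusted threshold in red, those at an unadjusted p under 0.05 in black and the others in grey; the dashed line is the median of all 14785 genes. The points sit mostly right of that line in the comparisons of NLH and LH with Ctrl and HC, and the red points are Hspa4l, Dnajc3 and Hsph1 in LH vs. HC.

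Of the ER members, Hspa5 and Dnajc3 lay above HC in every tested mouse. Hspa5 (chromosome 2, 34771970 to 34777547, plus strand of mm10), also called BiP, binds unfolded proteins in the ER and holds its stress sensors inactive. It was 22.7, 22.4, 21.3 and 23.3 FPKM in the HC mice, 29.0, 34.3, 35.2 and 37.3 in the Ctrl mice, 41.9, 39.7, 53.7 and 33.6 in the NLH mice and 55.5, 66.8, 26.6 and 38.5 in the LH mice. All 12 mice that had been through the escape test lay above all 4 HC mice, the LH range held the whole Ctrl range, and LH replicate 3 was the lowest of the tested mice. The difference was 0.59 in Ctrl vs. HC (SE 0.21, limma adjusted p 1), 0.89 in NLH vs. HC (SE 0.21, limma adjusted p 0.247) and 0.97 in LH vs. HC (SE 0.21, limma adjusted p 0.0629), a fold of 1.96. It passed the threshold in LH vs. HC with size factors (adjusted p 0.0182), after which the mice stood at 22.9, 23.4, 22.9 and 22.9 (HC), 30.8, 33.4, 35.0 and 37.1 (Ctrl), 42.6, 35.8, 47.1 and 34.1 (NLH) and 47.8, 55.4, 27.9 and 47.2 (LH). The scaling brought the HC mice within 22.9 to 23.4 and left LH replicate 3 the lowest tested mouse.

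Dnajc3 (chromosome 14, 118937976 to 118981697, plus strand), the J protein p58IPK of the ER, followed a like order and had a single transcript. It was 5.46, 5.26, 5.51 and 5.48 FPKM in HC, 6.35, 6.48, 6.45 and 6.98 in Ctrl, 7.09, 7.39, 8.38 and 6.58 in NLH and 9.12, 10.7, 7.95 and 7.27 in LH. HC mice were below all others, Ctrl mice below all LH mice, and NLH mice overlapped with both of their neighbours. Dnajc3 rose in LH vs. HC by 0.66 (SE 0.12, limma adjusted p 0.0311), a fold of 1.58. The difference was 0.27 in Ctrl vs. HC (limma adjusted p 1), 0.16 in NLH vs. Ctrl and 0.40 in LH vs. Ctrl (limma adjusted p 0.198, and 0.0419 with size factors).

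Hsp90b1 (chromosome 10, 86690209 to 86705509, minus strand), the ER Hsp90 known as GRP94, was 38.0, 40.3, 37.4 and 37.1 FPKM in HC, 35.4, 47.4, 41.6 and 46.9 in Ctrl, 53.8, 50.01, 63.7 and 43.2 in NLH and 65.2, 67.3, 45.9 and 45.7 in LH. NLH and LH mice lay above all HC mice, and Ctrl overlapped with HC and with both shocked groups. Summed over the gene the difference was 0.53 in LH vs. HC (SE 0.15, limma adjusted p 0.128). Its coding transcript ENSMUST00000020238.13, 90.0% of the gene, rose by 0.69 (SE 0.12, limma adjusted p 0.0394 over all 80137 transcripts), with HC mice at 31.7 to 32.8 FPKM and LH mice at 62.0, 61.0, 44.9 and 45.0. Hspa13, an Hsp70-like ATPase of the ER, was 5.67 to 6.88 FPKM in HC, 6.60 to 7.38 in Ctrl, 5.35 to 8.77 in NLH and 7.15 to 10.0 in LH, with differences of 0.45 in LH vs. HC (limma adjusted p 0.170) and 0.32 in LH vs. NLH (limma adjusted p 0.678, and a difference of 0.20 without NLH replicate 4).

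Of the 10 ER members, 2 were higher at an unadjusted p in Ctrl vs. HC (1.66% of all genes), 1 in NLH vs. Ctrl (4.99%), 4 in LH vs. Ctrl (8.18%), 1 in LH vs. NLH (2.98%), 5 in NLH vs. HC (6.72%) and 5 in LH vs. HC (10.2%), with none lower. With 10 genes, 1 call in NLH vs. Ctrl or in LH vs. NLH says little against those shares. Their summed level was 111 to 117 FPKM in HC, 117 to 140.0 in Ctrl, 130.0 to 184 in NLH and 131 to 207 in LH. A list of 14 other ER folding and stress genes, which are no members, was set beside them. Of these 6 were higher at an unadjusted p in Ctrl vs. HC (1.66% of all genes), 1 in NLH vs. Ctrl (near the 4.99% of all genes), 4 in LH vs. Ctrl (8.18%), 7 in NLH vs. HC (6.72%) and 8 in LH vs. HC (10.2%), while in LH vs. NLH 1 was higher and 1 lower (2.98% and 4.05%). Calr, the ER lectin chaperone calreticulin, rose in LH vs. HC by 0.73 (SE 0.15, limma adjusted p 0.0455) and was picked for naming after seeing its values. This call too was lost in the fit of only the 8 mice compared. Calr was 52.9, 54.8, 53.4 and 54.1 FPKM in HC, 63.4, 70.2, 69.8 and 68.9 in Ctrl, 86.4, 99.3, 105 and 78.6 in NLH and 106, 119.7, 68.3 and 74.0 in LH. The median difference of the 14 was 0.27 in Ctrl vs. HC, 0.47 in NLH vs. HC and 0.50 in LH vs. HC, against 0.026, 0.095 and 0.036 over all genes.

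The Hsp110 genes, nucleotide exchange factors of cytosolic Hsp70, are 3 among the members. All 3 had a higher level at an unadjusted p in NLH vs. Ctrl (4.99% of all genes), in LH vs. Ctrl (8.18%), in NLH vs. HC (6.72%) and in LH vs. HC (10.2%), and 1 did in Ctrl vs. HC (1.66%) and 1 in LH vs. NLH (2.98%), and none passed the adjusted threshold against Ctrl. Hspa4l (chromosome 3, 40744495 to 40796103, plus strand) was 14.4, 16.1, 15.0 and 16.3 FPKM in HC, 15.8, 16.8, 14.8 and 18.1 in Ctrl, 20.8, 21.1, 21.6 and 17.9 in NLH and 25.2, 24.9, 22.6 and 21.9 in LH. LH mice lay above all mice of the other 3 groups, and HC and Ctrl overlapped. Hspa4l rose in LH vs. HC by 0.61 (SE 0.095, limma adjusted p 0.0205), a fold of 1.52, and this was the smallest p of any member in any comparison. In LH vs. Ctrl the difference was 0.53 (SE 0.095, limma adjusted p 0.0628, and 0.0366 with size factors). In LH vs. NLH it was 0.22 (SE 0.095, limma adjusted p 0.678), and in NLH vs. Ctrl 0.31 (SE 0.095, limma adjusted p 0.509).

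Hsph1 (chromosome 5, 149614287 to 149636376, minus strand), the heat-inducible Hsp110 called HSP105, was 13.4, 15.5, 12.7 and 12.9 FPKM in HC, 16.6, 15.3, 16.03 and 17.98 in Ctrl, 19.3, 22.1, 30.1 and 22.3 in NLH and 24.7, 22.4, 20.6 and 18.4 in LH. NLH and LH mice were above all Ctrl and HC mice, and overlapped with each other. Hsph1 rose in LH vs. HC by 0.65 (SE 0.13, limma adjusted p 0.0453), a fold of 1.57. In NLH vs. HC the difference was larger, 0.76 (SE 0.13), with a limma adjusted p of 0.0547, and 0.0282 with size factors. It was 0.49 in NLH vs. Ctrl (limma adjusted p 0.437) and 0.38 in LH vs. Ctrl (limma adjusted p 0.257). Unnamed assembled transcripts held 35.4% of the FPKM at the Hsph1 locus, and with them added the LH vs. HC difference was 0.65 (adjusted p 0.0334).

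Hspa4, the third Hsp110 gene, was 17.5, 17.6, 17.5 and 18.5 FPKM in HC, 16.7, 18.5, 18.1 and 18.6 in Ctrl, 22.2, 21.5, 23.2 and 19.9 in NLH and 27.0, 24.8, 19.6 and 29.6 in LH. The groups with inescapable shocks lay above the groups without them, and the highest value was that of LH replicate 4. In that mouse 12.1 of the 29.6 FPKM came from ENSMUST00000139322.7, annotated as a retained intron, which was at most 1.33 FPKM in the other 15 mice. The coding transcript ENSMUST00000020630.7 was 24.8, 23.4, 18.2 and 16.3 FPKM in the LH mice, so LH replicate 4 was the lowest of them there. The difference in LH vs. Ctrl was 0.47 over all transcripts (limma adjusted p 0.125) and 0.25 over coding transcripts alone (adjusted p 0.426). In NLH vs. Ctrl the same values were 0.27 and 0.25.

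**Figure D5:**
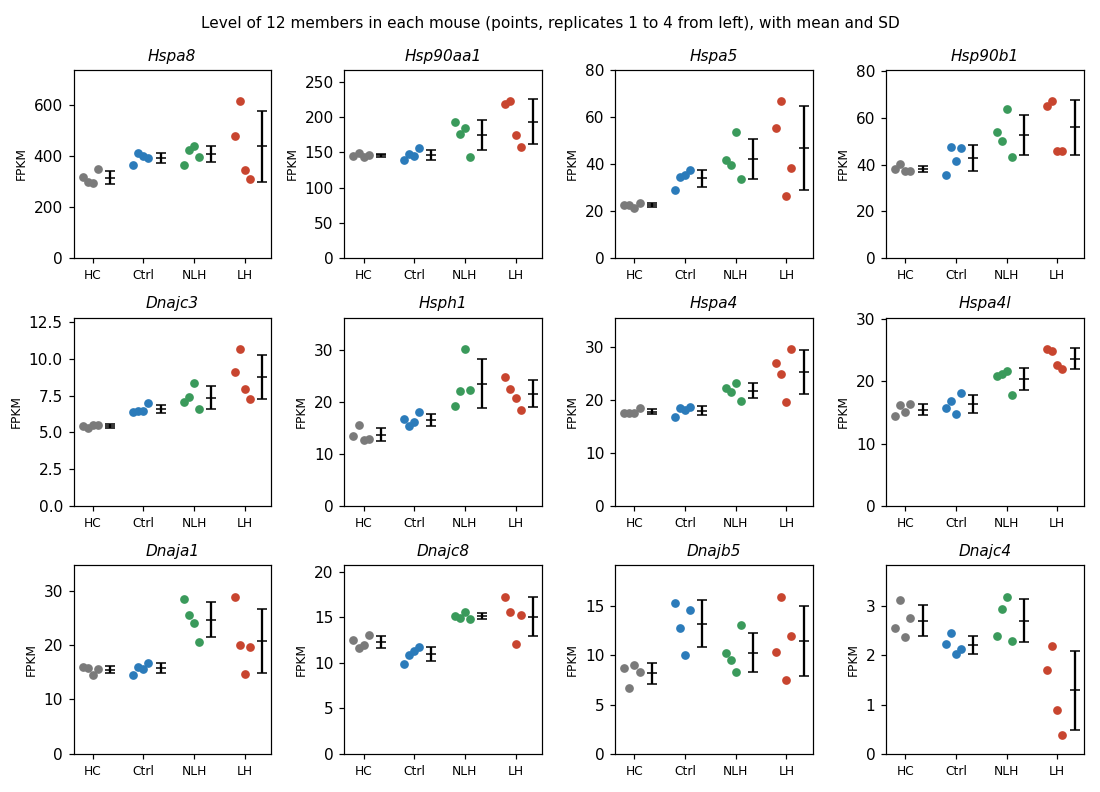
FPKM of 12 members in each mouse (points, replicates 1 to 4 from left to right) with the group mean and SD to their right (4 mice per group). Hspa5 and Dnajc3 are lowest in HC, Hsph1 and Hspa4l are higher in NLH and LH than in HC, Dnaja1 and Dnajc8 are higher in NLH than in Ctrl, Dnajb5 is higher in Ctrl than in HC, and Dnajc4 is at 0.884 and 0.380 FPKM in LH replicates 3 and 4.

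The most abundant cytosolic chaperones had smaller differences. Hspa8 (chromosome 9, 40800984 to 40810087, plus strand) was 318, 300.1, 293 and 349.8 FPKM in HC, 364, 412, 401 and 395 in Ctrl, 367, 426, 441 and 399 in NLH and 481, 617, 345 and 312 in LH. Ctrl and NLH mice lay above all HC mice, and LH replicates 3 and 4 lay within the HC range. With size factors the HC mice stood at 321, 313, 315 and 345 and the LH mice at 414, 511, 363 and 383, so that all LH mice lay above all HC mice. The difference was 0.37 in NLH vs. HC (SE 0.16, limma adjusted p 0.598) and 0.43 in LH vs. HC (SE 0.16, limma adjusted p 0.241, and 0.0438 with size factors). The latter difference was 0.24 without LH replicate 2. A transcript without an annotated coding sequence, ENSMUST00000153847.1, gave 35.9% of the gene's FPKM. It was 100.3 to 136 FPKM in HC, 159.7 to 182 in Ctrl, 87.2 to 143 in NLH and 79.4 to 274 in LH. The main coding transcript ENSMUST00000015800.15, 59.7% of the gene, was 193, 179.7, 171 and 196 FPKM in HC, 197, 218, 218 and 211 in Ctrl, 259, 261, 297 and 239 in NLH and 319.6, 326, 224 and 205 in LH. On the coding transcript NLH mice lay above all Ctrl mice and Ctrl mice above all HC mice, while on the noncoding one Ctrl mice lay above all NLH mice.

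Hsp90aa1, the inducible cytosolic Hsp90, was 145, 149, 143 and 146 FPKM in HC, 139, 148, 145 and 155 in Ctrl, 192, 177, 185 and 143 in NLH and 219, 223, 175 and 158 in LH. All LH mice lay above all Ctrl and HC mice, and NLH replicate 4 stood at the HC level. The difference was 0.39 in LH vs. Ctrl (SE 0.11, limma adjusted p 0.195) and 0.39 in LH vs. HC (SE 0.11, limma adjusted p 0.141). Its constitutive counterpart Hsp90ab1 was 148 ± 6.68 FPKM in HC mice, 154 ± 11.5 in Ctrl mice, 172 ± 13.5 in NLH mice and 174 ± 27.6 in LH mice (SD, n = 4 each). Differences of Hsp90ab1 were at most 0.22 in all 6 comparisons, none at an unadjusted p under 0.05. Hspa12a, a distant Hsp70 relative of the brain, was 20.2 ± 1.01 FPKM in HC mice, 19.9 ± 1.72 in Ctrl mice, 23.1 ± 2.37 in NLH mice and 21.7 ± 5.75 in LH mice (SD, n = 4 each).

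The HSF1-driven genes were read as a list of 14, of which 12 were measured: Hspa8, Hsph1, Hsp90aa1, Hsp90ab1, Dnaja1, Dnajb1, Dnajb4, Hspb1, Hspb8, Hspd1, Hspe1 and Hspa4l. The inducible Hspa1a and Hspa1b were on the list but were not analysed here. At an unadjusted p, 1 was higher and 1 lower in Ctrl vs. HC (1.66% and 0.974% of all genes), 6 were higher in NLH vs. Ctrl (4.99%), 6 in LH vs. Ctrl (8.18%), 1 in LH vs. NLH (2.98%), 6 in NLH vs. HC (6.72%) and 7 in LH vs. HC (10.2%), with none lower in the last 5. Past the adjusted threshold were 2, both in LH vs. HC (0.304%). The list's median difference was 0.094 in Ctrl vs. HC (all genes 0.026), 0.20 in NLH vs. Ctrl (0.068), 0.25 in LH vs. Ctrl (0.0098), 0.0038 in LH vs. NLH (-0.054), 0.31 in NLH vs. HC (0.095) and 0.39 in LH vs. HC (0.036). Its genes differed from each other. Hspa4l and Hsph1 passed the adjusted threshold in LH vs. HC, whereas Hspe1, Hspb8, Hspb1 and Hsp90ab1 were at no unadjusted p under 0.05 in any comparison.

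Dnaja1, the main J protein partner of cytosolic Hsp70, was 15.9, 15.7, 14.5 and 15.6 FPKM in HC, 14.5, 16.03, 15.6 and 16.7 in Ctrl, 28.4, 25.5, 24.1 and 20.6 in NLH and 28.8, 19.9, 14.6 and 19.6 in LH. NLH mice were above all Ctrl and HC mice, whereas the LH mice covered both levels, with LH replicate 3 the lowest. The difference was 0.64 in NLH vs. Ctrl (SE 0.15, limma adjusted p 0.372), 0.66 in NLH vs. HC (limma adjusted p 0.217) and 0.36 in LH vs. Ctrl (limma adjusted p 0.380), the last being 0.18 without LH replicate 1. Dnajb1, the classical heat-inducible J protein, was 3.67 to 5.11 FPKM in HC, 4.30 to 6.00 in Ctrl, 4.56 to 5.80 in NLH and 4.31 to 6.87 in LH, overlapping in all comparisons, with 0.40 in LH vs. HC (limma adjusted p 0.282). Dnajb4 was 4.41 to 6.49 FPKM in HC, 5.01 to 5.92 in Ctrl, 6.15 to 8.29 in NLH and 5.54 to 8.74 in LH, with a difference of 0.33 in NLH vs. Ctrl (limma adjusted p 0.792) and 0.33 in LH vs. Ctrl (limma adjusted p 0.401). Among the genes around this group, Hsf1 itself was 2.24, 2.75, 2.21 and 2.56 FPKM in HC, 3.31, 3.54, 2.74 and 4.08 in Ctrl, 2.79, 3.54, 3.86 and 4.06 in NLH and 3.35, 3.56, 3.58 and 3.54 in LH. Its difference was 0.46 in Ctrl vs. HC (SE 0.15, limma adjusted p 1) and 0.51 in LH vs. HC (limma adjusted p 0.132).

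The cochaperones outside the members, a list of 31 genes including Hsf1, had 2 higher and 1 lower at an unadjusted p in Ctrl vs. HC (1.66% and 0.974% of all genes), 5 higher in NLH vs. Ctrl (4.99%), 7 in LH vs. Ctrl (8.18%), 2 in LH vs. NLH (2.98%), 9 in NLH vs. HC (6.72%) and 11 in LH vs. HC (10.2%). Stip1, which links Hsp70 to Hsp90, was 10.3, 8.25, 7.49 and 10.1 FPKM in HC, 10.9, 10.4, 11.7 and 11.6 in Ctrl, 14.6, 16.4, 16.8 and 14.7 in NLH and 18.6, 15.1, 12.4 and 11.7 in LH. NLH mice lay above all Ctrl and HC mice. The Stip1 difference was 0.79 in NLH vs. HC (SE 0.14, limma adjusted p 0.0547) and 0.66 in LH vs. HC (SE 0.14, limma adjusted p 0.0577). Bag3, Cryab and Hyou1, also stress-induced in many cells, were at 0.12, -0.16 and 0.25 in LH vs. HC, with limma adjusted p of 0.861, 0.855 and 0.744. Of the chaperonin TRiC and its partner prefoldin, 12 of 14 listed genes were measured and 3 were higher at an unadjusted p in LH vs. HC (10.2% of all genes), 2 in NLH vs. HC (6.72%), 1 in NLH vs. Ctrl (4.99%), 1 in LH vs. Ctrl (8.18%) and none in the other 2 comparisons, and 1 of 12 is about the share of all genes in LH vs. Ctrl.

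The J proteins outside the cytosolic heat shock group varied one by one. Among 24 DnaJC genes, 4 were higher at an unadjusted p in NLH vs. Ctrl (4.99% of all genes) and 6 higher and 1 lower in LH vs. Ctrl (8.18% and 3.58%), and among 10 DnaJB genes 3 and 2 were higher. The 1 lower of 24 is close to the share of all genes. Dnajc8, a nuclear J protein linked to splicing, was 12.5, 11.6, 12.0 and 13.1 FPKM in HC, 9.89, 10.9, 11.3 and 11.7 in Ctrl, 15.1, 14.9, 15.6 and 14.9 in NLH and 17.3, 15.6, 12.1 and 15.3 in LH. Every NLH and LH mouse lay above every Ctrl mouse, and the 4 NLH mice were within 14.9 to 15.6 FPKM. The difference was 0.47 in NLH vs. Ctrl (SE 0.10, limma adjusted p 0.305) and 0.45 in LH vs. Ctrl (SE 0.10, limma adjusted p 0.127), and the Ctrl mice were themselves -0.17 from HC (limma adjusted p 1). Dnajc28, a little studied J protein, was 0.845 to 1.25 FPKM in HC, 1.03 to 1.35 in Ctrl, 1.40 to 2.02 in NLH and 1.51 to 1.64 in LH, with all NLH and LH mice above the other 8 mice. Its difference was 0.71 in NLH vs. HC (limma adjusted p 0.220) and 0.63 in LH vs. HC (limma adjusted p 0.104).

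Dnajb5 set Ctrl mice apart from HC. This cytosolic J protein was 8.73, 6.68, 9.05 and 8.26 FPKM in HC, 15.4, 12.8, 10.0 and 14.6 in Ctrl, 10.2, 9.49, 8.34 and 13.1 in NLH and 10.4, 15.9, 7.45 and 12.0 in LH. Ctrl mice lay above all HC mice and overlapped with NLH and LH. The difference in Ctrl vs. HC was 0.67 (SE 0.20, unadjusted limma p 0.00430, adjusted p 1), the smallest p of a member in that comparison. Over coding transcripts it was 0.90, and with the unnamed assembled transcripts, 36.7% of the locus, it was 0.39.

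The vesicle partners Dnajc6 and Dnajc5 had group means close to each other. Dnajc6 was 41.7 ± 2.09 FPKM in HC mice, 42.6 ± 1.28 in Ctrl mice, 46.6 ± 3.34 in NLH mice and 44.6 ± 8.68 in LH mice (SD, n = 4 each). Dnajc5 was 28.6 ± 0.932 FPKM in HC mice, 30.2 ± 1.91 in Ctrl mice, 30.5 ± 3.11 in NLH mice and 28.8 ± 8.71 in LH mice (SD, n = 4 each). Neither was at an unadjusted p under 0.05 in any comparison.

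Of 8 listed members of mitochondria 7 were measured, and 1 was lower in Ctrl vs. HC (0.974% of all genes), 2 were higher in NLH vs. Ctrl (4.99%) and 2 in LH vs. Ctrl (8.18%) at an unadjusted p, with none in LH vs. NLH, NLH vs. HC or LH vs. HC. Hspd1, the chaperonin Hsp60, was 16.2, 17.6, 10.2 and 11.9 FPKM in HC, 8.06, 10.6, 10.8 and 10.1 in Ctrl, 11.8, 15.9, 17.1 and 13.7 in NLH and 16.3, 16.3, 11.7 and 14.0 in LH. Ctrl mice were the low group, below every NLH and LH mouse, and HC mice spread over both levels. The difference was -0.48 in Ctrl vs. HC (limma adjusted p 1), 0.56 in NLH vs. Ctrl (limma adjusted p 0.520) and 0.56 in LH vs. Ctrl (limma adjusted p 0.218), and adding the unnamed transcripts, 43.1% of the locus, brought the first to -0.099. Its cofactor Hspe1 (Hsp10), which shares the promoter region printed above, was 12.9 to 16.6 FPKM in HC, 12.7 to 17.4 in Ctrl, 15.9 to 18.03 in NLH and 9.53 to 19.5 in LH and did not show the low Ctrl values. Hspa9 was 25.3 ± 1.59 FPKM in HC mice, 23.9 ± 1.27 in Ctrl mice, 28.2 ± 3.52 in NLH mice and 28.4 ± 3.00 in LH mice (SD, n = 4 each), with 0.25 in LH vs. Ctrl (limma adjusted p 0.365).

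Among members with a mean of at least 1 FPKM, the largest SD within groups on the log2 scale was that of Hspb1, Hspbp1, Dnajc17, Dnajc4 and Dnajc15. Hspb1 was 1.22, 0.876, 0.760 and 1.39 FPKM in HC, 1.55, 1.44, 2.05 and 2.421 in Ctrl, 2.30, 1.28, 2.27 and 2.04 in NLH and 3.19, 4.14, 0.707 and 0.353 in LH. All Ctrl mice lay above all HC mice, and LH held both the highest and the lowest values of the 16 mice, in replicates 2 and 4. Hspbp1, an exchange factor of Hsp70, was at 0.845 and 1.10 FPKM in Ctrl replicates 3 and 4 against 1.62 to 5.31 elsewhere, and 74.8% of the FPKM at its locus belonged to unnamed assembled transcripts. Dnajc17, a J protein of the spliceosome, was 0.906 to 1.09 FPKM in HC and 0.877 to 2.75 in LH, and Dnajc15, a J protein of the mitochondrial import motor, was 7.12 to 10.8 and 3.72 to 14.1. The small heat shock protein Hspb8 was 2.10 to 2.76 FPKM in HC, 2.48 to 3.83 in Ctrl, 2.25 to 3.87 in NLH and 1.90 to 4.31 in LH. Of the 5 genes measured on the list of small heat shock proteins, Hspb11 among them, none was at an unadjusted p under 0.05 in any comparison.

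Dnajc4 was lower in LH mice at an unadjusted p. This J protein, whose client is not well known, was 2.55, 3.13, 2.38 and 2.75 FPKM in HC, 2.23, 2.46, 2.02 and 2.12 in Ctrl, 2.40, 2.95, 3.19 and 2.29 in NLH and 1.70, 2.19, 0.884 and 0.380 in LH. All LH mice were below all HC and NLH mice, and LH replicate 2 overlapped with Ctrl. The difference was -1.24 in LH vs. NLH (SE 0.34, limma adjusted p 0.395), the smallest p of a member there, -0.96 in LH vs. Ctrl (limma adjusted p 0.269) and -1.24 in LH vs. HC (limma adjusted p 0.118). Without LH replicate 4 alone these were -0.80, -0.53 and -0.81. The lowest mice were LH replicates 3 and 4, which stood apart in transcripts at 0, and without them the LH vs. NLH difference was -0.46 (adjusted p 0.207). With the unnamed transcripts of the locus it was -0.50.

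At the level of single transcripts, limma called 0 of the 258 member transcripts in Ctrl vs. HC (0.00374% of all transcripts), NLH vs. Ctrl (0.0125%), LH vs. Ctrl (0.0462%), LH vs. NLH (0.0412%) and NLH vs. HC (0.0237%), and 4 in LH vs. HC (0.14%), all higher in LH. None of the 4 calls was left with only the groups compared in the fit, with 1 added in place of 0.1 or without trend and robust moderation, and leaving out 1 mouse gave 0 to 9 (9 without LH replicate 4, where 0.696% of all transcripts were called). At an unadjusted limma p under 0.05, 14 member transcripts were higher and 4 lower in Ctrl vs. HC (1.9% and 1.55% of all transcripts), and 22 were higher and 6 lower in NLH vs. Ctrl (3.01% and 2.1%). For LH against Ctrl these were 19 and 19 (4.16% and 6.54%), and for LH against NLH 8 and 22 (2.98% and 5.74%). Against HC, 26 were higher and 2 lower in NLH (3.54% and 2.05%), and 25 were higher and 14 lower in LH (5.08% and 6.82%). Beside Hsp90b1 and the single Dnajc3 transcript, the 4 were the Hspa4l transcript ENSMUST00000204702.2 (by 0.61, limma adjusted p 0.0462) and the Dnajc21 transcript ENSMUST00000136591.7 (by 0.75, limma adjusted p 0.0364). The Dnajc21 transcript, of a J protein that works in ribosome maturation, was 1.59, 1.66, 1.82 and 1.88 FPKM in HC, 2.19, 2.35, 2.02 and 2.22 in Ctrl, 3.21, 2.55, 2.79 and 2.54 in NLH and 3.11, 2.65, 3.50 and 2.78 in LH. HC mice lay below all Ctrl mice, and Ctrl mice below all NLH and LH mice.

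A further 6 transcripts were picked without passing the adjusted threshold. They came from the member transcripts with a mean of at least 1 FPKM. Each was among the 2 with the smallest limma p in at least 1 of the 4 comparisons of the study. The noncoding Dnajc7 transcript ENSMUST00000129346.7, 64.8% of that gene's FPKM, was 3.74, 5.50, 5.05 and 3.89 FPKM in HC, 3.22, 1.77, 2.07 and 3.56 in Ctrl, 5.54, 6.96, 6.23 and 3.12 in NLH and 6.81, 9.71, 10.9 and 6.37 in LH. All LH mice lay above all HC and Ctrl mice, with a difference of 1.65 in LH vs. Ctrl (SE 0.27, limma adjusted p 0.0506). This Dnajc7 transcript was also among the 2 in Ctrl vs. HC, with a difference of -0.79 (unadjusted limma p 0.0117). The Hspa4l transcript ENSMUST00000108086.6 differed by 1.01 in NLH vs. Ctrl (limma adjusted p 0.363), with Ctrl mice at 2.64 to 3.84 FPKM and NLH mice at 5.91 to 7.59. The main Dnajc8 transcript ENSMUST00000094657.9 differed by 0.47 (limma adjusted p 0.223) in the same comparison, close to the gene's value. It was also among the 2 in LH vs. Ctrl, with a difference of 0.43 (limma adjusted p 0.132). The minor Hspa5 transcript ENSMUST00000028222.12, 5.18% of the gene, differed by 1.03 in Ctrl vs. HC (limma adjusted p 1). In LH vs. NLH the Dnajb2 transcript ENSMUST00000185654.2 differed by -2.77 (limma adjusted p 0.267), at 2.41, 2.01, 2.71 and 1.69 FPKM in NLH and 0.0672, 0.0202, 0.470 and 0.965 in LH, and all LH mice lay below all NLH mice. The Dnajc5 transcript ENSMUST00000116365.8, annotated for nonsense-mediated decay, differed there by -1.55 (limma adjusted p 0.453), at 1.19 to 1.64 FPKM in NLH and 0.965, 0.735, 0.756 and about 0 in LH.

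The equal-variance test on FPKM that the methods name, at an unadjusted p under 0.05, called 28 of 258 member transcripts in Ctrl vs. HC (6.68% of all transcripts tested), 35 of 257 in NLH vs. Ctrl (7.2%), 28 of 256 in LH vs. Ctrl (7.69%) and 11 of 256 in LH vs. NLH (4.47%). These are 10.9%, 13.6%, 10.9% and 4.30% of the member transcripts tested, so the members' share lay above the background in the first 3 comparisons and near it in the fourth. Of the calls, 20, 29, 13 and 3 were higher in the first group.

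LH mice differed among themselves in these genes as in others. LH replicates 1 and 2 both lay above LH replicates 3 and 4 for 42 of the 63 members (66.7%, against 52.6% of all genes) and both below them for 2 (3.17%, against 4.13%). With size factors they lay above for 14 (22.2%, against 21.5%) and below for 12 (19.0%, against 17.9%), close to the shares of all genes. The members' median in LH vs. HC was 0.38 without replicates 3 and 4, against 0.25 for all genes. The fit without them called 23 members in LH vs. Ctrl (8.1% of all genes), 26 in LH vs. HC (14.6%), 6 in NLH vs. HC (0.758%) and 2 in NLH vs. Ctrl (0.142%). The last pair of comparisons holds no LH mouse and moves through the shared estimate of the spread. With size factors, limma called 3 members in LH vs. Ctrl (Dnajc3, Hsp90aa1 and Hspa4l, 0.345% of all genes), 1 in NLH vs. HC (Hsph1, 0.0879%) and 8 in LH vs. HC (0.791%), 7 of them higher and Dnajc4 lower. The shares of retained introns and the numbers of transcripts at 0 given above move with the same LH mice, and the striatal and endothelial sums with the groups, and their part in these differences was not tested.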

How the data were processed

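The hippocampi of 16 mice were sequenced as total RNA with paired reads, and the authors deposited FPKM per transcript, with a type and a gene name for each row. Per the methods, reads were aligned to mm10 with HISAT2, transcripts assembled and merged with StringTie 1.2.3 and FPKM computed with Cufflinks, while the submitters' processing notes name STAR 2.42a. The limits of the read filter and the use of strand are not given in the sources used here, so overlapping genes may share reads. The depth in reads is unknown, and levels carry no counting interval. FPKM of rows typed protein coding were summed per gene name. Differences were fitted with limma 3.58.1 (R 4.3.3, trended and robust) on log2(FPKM + 0.1) over all 4 groups, with Benjamini-Hochberg adjustment over all 14785 genes or 80137 transcripts and a threshold of 0.05. The fit was tested on simulated data. Scripts in Python 3.11.15 (pandas 2.3.3) made the sums. Replicates are separate mice.

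Values were given for the measured HSF1-driven genes, the 10 highest members and the 3 members with the smallest p in each comparison. They were also given for all members past the adjusted threshold and the 5 members of at least 1 FPKM with the largest SD within groups. Member transcripts were given where past the threshold. The 2 with the smallest p in each of the 4 comparisons of the study were added, among member transcripts of at least 1 FPKM. The members and all lists were chosen with earlier results of these data known. Alternatives were other added constants, a filter on low values, size factors, a replicate block, only the groups compared, each mouse left out, LH replicates 3 and 4 left out, Student's test, unmoderated limma and all rows of a gene name. Sums with unnamed assembled transcripts and over coding transcripts alone were added after seeing the data. Locations are from GENCODE vM21 on mm10.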

Additional observations from a re-analysis of the deposited data

Results flagged for a closer look

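Dnajc4 lay on opposite sides of Ctrl in the 2 groups with inescapable shocks, with every LH mouse below the Ctrl mean and every NLH mouse above it. The difference of LH from NLH was -1.24 (log2 scale) by limma, with an unadjusted p of 0.00199 and an adjusted p of 0.395, and it was -0.46 without LH replicates 3 and 4.

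Hspa4 in HC replicate 4 was 18.5 FPKM against 17.5 to 17.6 FPKM in the other HC mice, a gap large for the range of that group of 4 by Dixon's criterion. It was the 1 such value among 112 groups of 4 mice, and chance gives about 1 in 20.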

How the results depend on the processing

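For 60 differences of named members, those at an unadjusted p under 0.05 or among the 3 smallest of a comparison, 1525 values under the alternatives kept their direction and their side of the threshold, 32 lost and 63 gained a call, and 0 changed direction. Only 3 of the 60 were past the threshold in the main fit, so all 32 losses fell on those 3. Over all 378 member differences, 167 changed sign under at least 1 alternative fitted with limma, none of them at an unadjusted p under 0.05, and most often without LH replicates 3 and 4 (58) and with size factors (48). No FPKM depth was known, 4 mice per group limit what can be called, and most calls depend on how the LH mice and the spread are treated; the cause of the changes was not tested. Numbers below are members called unless named otherwise, with the share of all genes or transcripts in parentheses. Student's unadjusted test called 11 genes in Ctrl vs. HC (9.36%), 15 in NLH vs. Ctrl (10.5%), 13 in LH vs. Ctrl (8.13%), 2 in LH vs. NLH (3.08%), 21 in NLH vs. HC (12.7%) and 17 in LH vs. HC (9.28%), and 28 (6.68%), 35 (7.2%), 28 (7.69%), 11 (4.47%), 37 (7.67%) and 26 (8.22%) transcripts. With size factors there were 3 genes in LH vs. Ctrl, 1 in NLH vs. HC and 8 in LH vs. HC, 6 genes at an unadjusted p in LH vs. NLH (10.7%), and 6 (0.166%), 2 (0.0412%) and 10 (0.54%) transcripts in LH vs. Ctrl, NLH vs. HC and LH vs. HC. Without LH replicates 3 and 4 there were 2 genes in NLH vs. Ctrl, 23 in LH vs. Ctrl, 6 in NLH vs. HC and 26 in LH vs. HC, and 1 (0.0412%), 9 (0.413%), 7 (0.156%) and 22 (2.2%) transcripts. At an unadjusted p this left 9 (6.62%), 23 (13.2%), 36 (28.1%), 21 (17.3%), 26 (16.1%) and 41 (32.8%) genes in the order Ctrl vs. HC, NLH vs. Ctrl, LH vs. Ctrl, LH vs. NLH, NLH vs. HC and LH vs. HC, and medians of 0.39, 0.19 and 0.38 for LH against Ctrl, NLH and HC. With only the groups compared in the fit there were 13 genes at an unadjusted p in Ctrl vs. HC (9.65%), and for LH mice 11 against Ctrl (7.38%) and 1 against NLH (3.02%), while 2 genes were called in NLH vs. HC (0.115%) and 0 genes and 0 transcripts in LH vs. HC. A mean of at least 1 FPKM gave 1 gene in NLH vs. HC (0.089%), 5 genes in LH vs. HC (0.762%) and 1 transcript in LH vs. Ctrl (0.292%). Adding 0.01 gave 2 transcripts in LH vs. Ctrl (0.0811%), and adding 1, or leaving out the trend and robust moderation, 0 in LH vs. HC. With unnamed transcripts of the locus there were 3 genes at an unadjusted p in Ctrl vs. HC (2.63%) and 5 called in LH vs. HC (0.791%). With 1 mouse left out the genes called ranged from 0 to 4 in LH vs. Ctrl (0% to 1.68%), 0 to 2 in NLH vs. HC (0.00676% to 0.183%) and 0 to 11 in LH vs. HC (0.0203% to 4.4%, with 0 members without each HC mouse and 11 without LH replicate 4), and were 0 in the others. Genes at an unadjusted p ranged from 3 to 7 (1.88% to 4.67%), 8 to 18 (4.02% to 10.0%), 12 to 26 (8.7% to 18.9%), 2 to 8 (5.21% to 13.4%), 11 to 20 (5.09% to 12.5%) and 14 to 29 (10.5% to 22.3%) in the order above, transcripts called from 0 to 0 (0% to 0.0162%), 0 to 1 (0.00998% to 0.0586%), 0 to 3 (0.015% to 0.387%), 0 to 1 (0.02% to 0.302%), 0 to 1 (0.0112% to 0.0512%) and 0 to 9 (0.0262% to 0.696%), and medians from 0.028 to 0.076, 0.11 to 0.21, 0.057 to 0.23, -0.11 to 0.062, 0.16 to 0.26 and 0.13 to 0.29.

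Mice of different groups share numbers in the labels, but 24 pairs with the same number had a median correlation of -0.029 (-0.081 to 0.144) of their deviations, so the numbers do not pair the mice. With these numbers as a replicate block, 0 genes and 0 transcripts were called in LH vs. HC.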
